A study of Mus musculus with 8 samples.

Results

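The contractile apparatus of smooth muscle is described here through a list of 40 genes that was given by name: myosin chains and the enzymes that switch them, thin filament proteins, Z-line and linker proteins, transcription factors, and 3 genes of the cell surface, the matrix or muscle nuclei. Actin genes were left out of the list. Probes were found by gene symbol, with Mkl1 and Mkl2 matched through their current symbols Mrtfa and Mrtfb, which gave 57 probes of 34 members among the 25697 probes of the table. The annotation used here assigns no probe to Myl9, Ppp1r12a, Ppp1r12b, Tagln2, Tpm4 and Flna. A probe was tested where its detection p was under 0.05 on at least 4 of the 8 arrays, and 36 probes of 27 members met that, out of 8302 genes tested in all.

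The cells were primary vascular smooth muscle cells from the carotid artery of male mice of C57bl6 background, which were serum synchronised, stimulated with serum and PDGF-BB (a growth factor of platelets), stained with the DNA dye Hoechst and sorted for early G1. One group of 4 arrays was labelled PMCA4 wild type and the other group of 4 PMCA4 knockout. PMCA4 is a calcium pump of the plasma membrane encoded by Atp2b4, and the labels describe no other allele or agent that sets the groups apart. Whether the 4 RNAs of a genotype stem from different animals or dishes is not stated in the labels. The p-values therefore reflect the scatter of these 8 samples alone, and that scatter may be technical. Nor do labels or headers name a slide or a scan, so a batch that followed the genotype cannot be told apart from it. Between 11697 and 11987 probes per array were above background. The Atp2b4 probe that was detected read 6.72, 6.90, 7.05 and 6.89 in wild type and 7.17, 6.99, 6.56 and 7.07 in knockout, which overlap (limma adjusted p = 0.719). The deleted part of the gene is not given, so this probe may lie outside it, and the direction of each change rests on the array labels.

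Smooth muscle contracts when calcium-bound calmodulin activates myosin light chain kinase, which phosphorylates the regulatory light chain so that myosin can pull on actin. A phosphatase reverses this, and thin filament proteins such as caldesmon, calponins and tropomyosins modulate the sliding. Dense bodies and adhesion plaques, which take the place of Z-lines in this muscle, anchor the filaments through alpha-actinin and LIM proteins. In vascular smooth muscle, serum response factor (SRF) binds CArG boxes in the promoters of many of these genes together with myocardin or its relatives, the myocardin-related transcription factors, and cells in culture often lose part of this contractile gene program.

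By the brightest tested probe of each gene, 17 of the 27 tested members were higher in knockout, 4 were lower and 6 did not pass an adjusted p of 0.05. Over all genes tested the share higher was 26.9%, the share lower 30.7% and the share called in either direction 57.6%. The median log2 change of the tested members was 0.41, beside -0.02 over all genes tested. Mylk (the kinase) and Myh11 (the smooth muscle myosin heavy chain) passed the filter through their knockout arrays alone and so had to differ. Of the other 25 tested members, 15 were higher. The 2 groups of arrays did not overlap for 22 of the 27 tested members, against 53.5% of all genes, and 8 of the 27 were called with a change of at least 2-fold, against 11.2%. One of those 8, Myh11, has a lower bound of 1.98-fold. Both counts, of groups without overlap and of changes of at least 2-fold, include Mylk and Myh11, which had to differ.

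The labelled cell type was set against its defining markers. Of 6 markers of smooth muscle, Acta2, Tagln, Smtn and Lmod1 were above background on all 8 arrays, Myh11 on the knockout arrays alone and Cnn1 on none, so the wild-type arrays lack a measurable signal of 2 of the 6. The summed linear intensity of the 6 markers, 1 probe each, was 35175 to 40740 in wild type and 65533 to 68838 in knockout. Acta2, an actin gene and no member, made up 91.9% to 93.1% of each sum, and without it the sums were 2538 to 3082 and 4692 to 4931. Smtn was lower in knockout while Acta2, Tagln, Lmod1 and Myh11 were higher. In bulk samples, fewer cells of a type and less RNA per cell cannot be told apart. Markers of adventitial fibroblasts moved with the contractile genes: 12 of 13 tested were higher and 0 were lower. Lum, among those 12, passed the filter through its knockout arrays alone and so had to differ. Over all genes tested 26.9% were higher and 30.7% lower. The summed intensity of 15 fibroblast markers was 7725 to 9808 in wild type and 54774 to 59168 in knockout, with Dpp4 and Fap below background throughout. Of 4 tested pericyte markers 1 was higher (sums of 2247 to 2543 and 2136 to 2415), and 4 of 8, Rgs5 among them, were below background throughout. Striated muscle markers were below background on every array in 13 of 17 cases, Myh1, Myh6, Myh7, Myod1, Ckm and Ttn included, while Tnnt1, Tnnc1 and Actn3 were higher (sums of 765 to 788 and 1032 to 1110). Tnnt1 was above background in knockout alone and so had to differ to pass the filter. Endothelial markers were below background throughout in 6 of 9 cases, Pecam1 and Cdh5 included (sums of 580 to 621 and 606 to 616). Of the others, Flt1 was higher, Plvap was lower, and Emcn was above background on 2 wild-type arrays alone. Leukocyte markers were below background throughout in 6 of 8 cases, Ptprc included, with Cd3e and Lyz2 above background in knockout alone (sums of 253 to 269 and 416 to 436). The part of other cell types in the changes of the contractile genes was not tested.

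**Figure D1:**
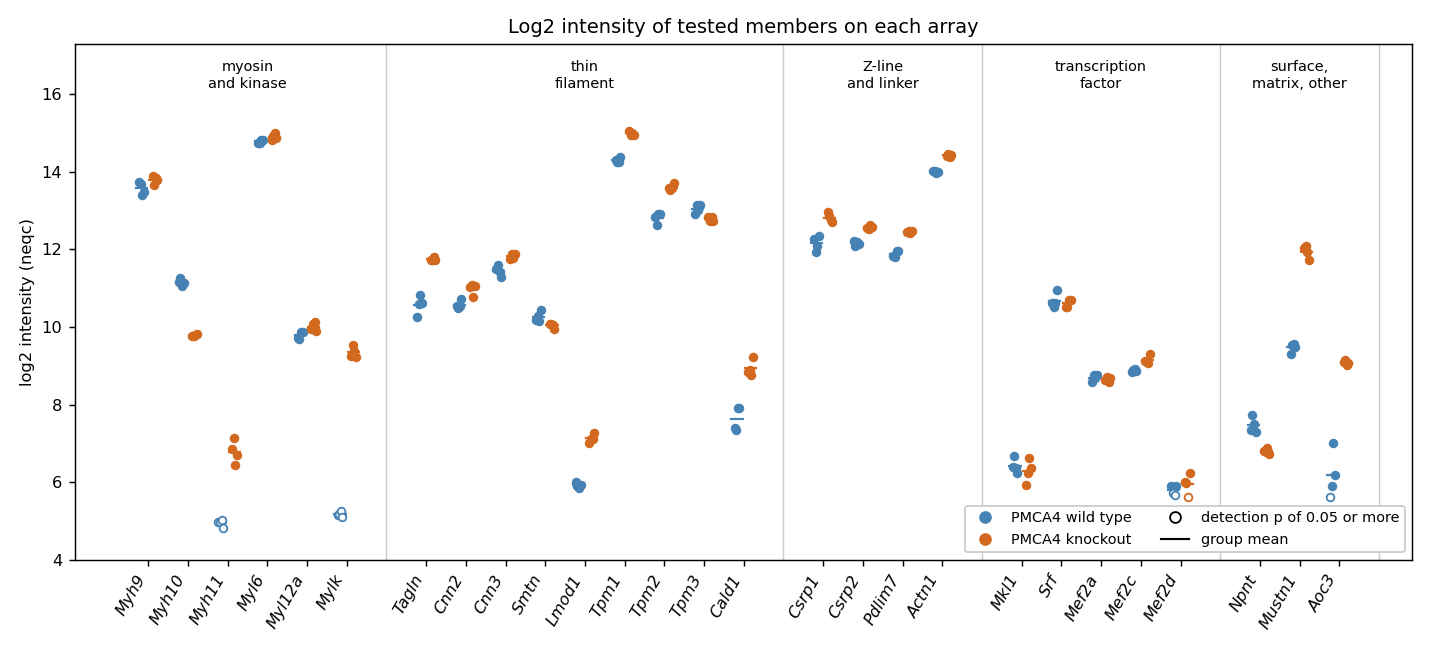
Log2 intensity (vertical axis, after neqc normalization) on each of the 8 arrays for the 27 tested members at their brightest tested probe, ordered by role, with wild type in blue, knockout in orange and a short line at each group mean. Open points are arrays where the probe was not above background. Mylk and Myh11 are open on all 4 wild-type arrays and filled on all 4 knockout arrays, Myh10 is lower in knockout, and the points of Srf, Mef2a and Mkl1 overlap.

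The promoters of some members are printed with the motifs that muscle factors are known to bind. RefSeq promoter sequences of GRCm38.p6, from 250 bases before a gene start to 50 after it, were matched to 35 members with 46 entries. Myh11, Tagln, Csrp2, Myocd and Aoc3 had no matched entry and were not searched. The matched sequences were searched on both strands for the CArG box, the MEF2 site, TATAAA and CATTCC (the MCAT element, bound by TEAD factors). Mylk is shown because both of its probes were above background in knockout alone, Lmod1 because it rose by over 2-fold, and Cnn2 and Srf because they hold CArG boxes while only Cnn2 was called. Capitals mark CArG boxes and CATTCC or its complement GGAATG.
Mylk (chr16:34784700-34784999, strand +): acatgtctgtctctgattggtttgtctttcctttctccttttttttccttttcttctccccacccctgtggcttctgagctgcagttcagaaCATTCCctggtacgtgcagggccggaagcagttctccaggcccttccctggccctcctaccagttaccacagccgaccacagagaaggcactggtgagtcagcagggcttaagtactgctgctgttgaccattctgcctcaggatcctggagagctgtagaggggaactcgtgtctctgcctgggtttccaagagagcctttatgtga
Lmod1 (chr1:135324563-135324862, strand +): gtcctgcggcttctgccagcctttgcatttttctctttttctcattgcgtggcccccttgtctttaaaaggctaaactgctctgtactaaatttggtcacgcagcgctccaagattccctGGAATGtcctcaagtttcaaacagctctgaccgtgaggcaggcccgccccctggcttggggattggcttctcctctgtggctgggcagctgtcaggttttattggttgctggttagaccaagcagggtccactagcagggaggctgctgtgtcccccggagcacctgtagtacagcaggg
Cnn2 (chr10:79988350-79988649, strand +): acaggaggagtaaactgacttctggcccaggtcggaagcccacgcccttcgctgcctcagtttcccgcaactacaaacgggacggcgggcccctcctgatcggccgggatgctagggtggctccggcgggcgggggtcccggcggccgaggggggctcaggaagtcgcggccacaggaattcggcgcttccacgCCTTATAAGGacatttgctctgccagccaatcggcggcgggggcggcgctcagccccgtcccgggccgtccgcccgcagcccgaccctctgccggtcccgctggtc
Srf (chr17:46556113-46556412, strand -): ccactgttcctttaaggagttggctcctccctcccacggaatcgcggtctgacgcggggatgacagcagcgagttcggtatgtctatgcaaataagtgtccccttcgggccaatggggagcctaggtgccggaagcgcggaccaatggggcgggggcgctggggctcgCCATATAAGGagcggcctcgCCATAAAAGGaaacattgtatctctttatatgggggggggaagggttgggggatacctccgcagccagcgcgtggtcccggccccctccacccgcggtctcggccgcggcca
The Cnn2 promoter holds 1 CArG box, with its first base at -56 from the gene start, and the Srf promoter holds 2, at -82 and -62. Both other sequences hold 1 CATTCC match and no CArG box in this window, at -158 in Mylk and on the opposite strand at -130 in Lmod1. The Mylk entry is 1 annotated start and lies inside the span of the gene. No matches overlap in these 4 sequences. A CArG box was found in 4 of the 46 member entries (8.7%), against 1.63% of all 32851 promoter entries, and the other members with one are Myl6 and Myl9. CATTCC was found in 30.4% of member entries against 14.7% of all, the MEF2 site in 6.52% against 3.19%, and TATAAA in 13.0% against 13.6%. These matches are descriptions of the sequence, and binding was not measured. Of the 4 genes with a CArG box among the 35 searched, Cnn2 was higher, Myl6 and Srf did not pass, and Myl9 has no probe. Whether Tagln and Myh11, both higher, hold one in this window was not examined.

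In the myosin and kinase role, Mylk and Myh11 were higher in knockout, Myh10 was lower, and Myh9 and Myl6 did not pass. Among the 6 tested genes of this role 3 were higher and 1 was lower, with a median log2 change of 0.22 (0.17 without Mylk and Myh11) and changes from -1.37 to 4.18. Shares over all genes tested were 26.9% higher and 30.7% lower. Mylk encodes myosin light chain kinase, and in smooth muscle the same gene also gives telokin, a short protein without kinase activity. Log2 intensities of its brightest probe were 5.16, 5.17, 5.25 and 5.10 in wild type and 9.25, 9.54, 9.37 and 9.23 in knockout. No wild-type array was above background, and all 4 knockout arrays lay far above all 4 of wild type. The fold was at least 11.7 by this probe (fitted log2 change 4.18 ± 0.08 SE, limma adjusted p = 1.4e-10), where a bound takes the wild-type level at each array's lowest detected value. A second Mylk probe gave 4.95, 4.79, 4.82 and 4.90 in wild type and 9.23, 9.38, 9.37 and 9.08 in knockout, again below background in wild type alone, and at least 11-fold. Both Mylk probes passed the filter through knockout arrays alone and so had to differ, and their p-values are not read as support. Which transcripts of Mylk the probes match was not determined here. The fitted log2 change of the first probe ranged from 2.96 to 5.32 over the alternatives, lowest under normexp with an offset of 50 and highest without further background correction.

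Myh11 encodes the heavy chain that defines differentiated smooth muscle. Its only probe gave 4.97, 4.96, 5.03 and 4.83 in wild type and 6.86, 7.15, 6.45 and 6.70 in knockout. It was above background on every knockout array and on no wild-type array, so it too had to differ to pass the filter, and its p-value is not read as support. Myh11 was at least 1.98-fold higher (fitted log2 change 1.84 ± 0.13 SE, limma adjusted p = 1.16e-06), and its fitted change ranged from 1.16 to 2.57 under the same 2 alternatives. Myh10 encodes the non-muscle heavy chain IIB, which is known from embryonic and dedifferentiated smooth muscle. It gave 11.17, 11.26, 11.07 and 11.13 in wild type and 9.78, 9.78, 9.79 and 9.81 in knockout. The knockout arrays were tightly grouped, and all of them lay below all wild-type arrays. Myh10 fell from 11.16 ± 0.08 over the wild-type arrays to 9.79 ± 0.01 over those of knockout (SD, n = 4 each), 2.58-fold lower, -1.37 ± 0.06 on the log2 scale (SE, limma adjusted p = 3.56e-08). Myh9, the non-muscle heavy chain IIA found in most cells, gave 13.75, 13.68, 13.39 and 13.47 in wild type and 13.90, 13.66, 13.85 and 13.79 in knockout. The groups overlap, since knockout replicate 2 lies below wild-type replicates 1 and 2. The difference of Myh9 was 0.23 (95% confidence interval from 0.02 to 0.43, limma adjusted p = 0.06), and it passed the threshold in 5 of 20 alternatives, among them without wild-type replicate 1 (adjusted p = 0.023) and without knockout replicate 2 (adjusted p = 0.0426).

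Myosin light chains differed little. Myl6 encodes the essential light chain of smooth and non-muscle myosin and gave 14.76, 14.76, 14.82 and 14.82 in wild type and 14.83, 14.94, 14.99 and 14.89 in knockout. Its groups did not overlap, but the difference was only 0.12 (95% confidence interval from -0.01 to 0.26, limma adjusted p = 0.101). Myl12a encodes a regulatory light chain and has a close paralog, Myl12b, whose transcript the probe may also bind, which was not tested. The brightest Myl12b probe, named after its values were seen, went the other way, with a change of -0.24 (limma adjusted p = 0.00929) and groups that did not overlap. Myl12a itself gave 9.72, 9.69, 9.88 and 9.88 in wild type and 9.95, 10.07, 10.13 and 9.90 in knockout. Knockout arrays were all above wild type, by a small gap. The change was 0.22 ± 0.08 (SE, limma adjusted p = 0.0311). Myl12a lost its call when wild-type replicate 1, wild-type replicate 2, knockout replicate 2 or knockout replicate 3 was left out, with adjusted p of 0.0696 to 0.0874. Ppp1r14a encodes CPI-17, an inhibitor of myosin phosphatase. Both of its probes were below background on all 8 arrays, with detection p from 0.0652 to 0.6892 at the brighter and from 0.2581 to 0.9674 at the other, so no fold is given.

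Thin filament genes were mostly higher. All 9 tested genes of this role passed the test, 7 higher and 2 lower, with a median log2 change of 0.70 (0.57 under median scaling and 0.55 without the filter on dim probes). Of all genes tested 57.6% passed in either direction, 26.9% higher and 30.7% lower. Cald1, Lmod1 and Tagln were higher by over 2-fold, and Smtn and Tpm3 were lower by less. Cald1 encodes caldesmon, which binds actin and restrains myosin. Its brightest probe gave 7.38, 7.33, 7.91 and 7.90 in wild type and 8.84, 8.90, 8.76 and 9.24 in knockout. Wild-type arrays fell into a lower and a higher pair, and all knockout arrays lay above both. Cald1 rose 2.47-fold, 1.30 ± 0.16 on the log2 scale (SE, limma adjusted p = 5.8e-05), and its other probe rose 3.06-fold (limma adjusted p = 8.61e-06). The probes were not assigned to the long smooth muscle form or the short form of caldesmon.

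Lmod1 encodes leiomodin 1, which nucleates actin filaments in smooth muscle. It gave 6.00, 5.90, 5.86 and 5.93 in wild type and 7.02, 7.11, 7.12 and 7.27 in knockout, dim but above background on every array. All knockout arrays were higher. Lmod1 rose 2.31-fold, 1.21 ± 0.07 on the log2 scale (SE, limma adjusted p = 2.67e-07), and the change was 0.71 under normexp with an offset of 50. Tagln encodes transgelin (SM22 alpha), an actin-binding protein and early marker of the lineage. It gave 10.26, 10.60, 10.82 and 10.62 in wild type and 11.72, 11.73, 11.81 and 11.73 in knockout. Wild-type replicate 1 was the lowest of its group, and the knockout arrays were close together above all of them. Tagln went from 10.57 ± 0.23 over the wild-type arrays to 11.75 ± 0.04 over those of knockout (SD, n = 4 each), 2.26-fold higher, 1.18 ± 0.10 on the log2 scale (SE, limma adjusted p = 6.5e-06).

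Tropomyosins lie along actin and control the access of myosin. Tpm1 gave 14.31, 14.25, 14.25 and 14.38 in wild type and 15.06, 14.96, 15.01 and 14.96 in knockout. Knockout arrays were all higher. Its rise was 1.62-fold, 0.70 ± 0.06 on the log2 scale (SE, limma adjusted p = 5.1e-06). Tpm2 gave 12.84, 12.64, 12.91 and 12.91 in wild type and 13.58, 13.52, 13.57 and 13.71 in knockout at its tested probe. No knockout array overlapped wild type, and Tpm2 rose 1.71-fold, 0.78 ± 0.08 on the log2 scale (SE, limma adjusted p = 1.58e-05). A second Tpm2 probe was above background on 3 knockout arrays and no wild-type array and was not tested, and the remaining one was below background throughout. Tpm3, a tropomyosin of slow skeletal muscle and of most non-muscle cells, moved the other way. It gave 12.92, 13.14, 13.01 and 13.14 in wild type and 12.84, 12.74, 12.84 and 12.72 in knockout at the 1 tested probe of 4. All knockout arrays were lower, and Tpm3 fell 1.2-fold, -0.27 ± 0.07 on the log2 scale (SE, limma adjusted p = 0.00924). The other 3 Tpm3 probes were below background on all arrays.

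Calponins bind actin and inhibit the myosin ATPase. Cnn2 gave 10.54, 10.48, 10.54 and 10.74 in wild type and 11.02, 11.08, 10.77 and 11.05 in knockout. All knockout arrays lay above wild type, though replicate 3 did so narrowly. Cnn2 rose 1.33-fold, 0.41 ± 0.09 on the log2 scale (SE, limma adjusted p = 0.00261), and its second probe, whose groups overlapped, rose 1.27-fold (limma adjusted p = 0.0383). Cnn3 gave 11.50, 11.59, 11.42 and 11.29 in wild type and 11.77, 11.88, 11.78 and 11.89 in knockout. The groups did not overlap and Cnn3 rose 1.3-fold, 0.38 ± 0.08 on the log2 scale (SE, limma adjusted p = 0.0018). Cnn1, the calponin used as a marker of differentiated smooth muscle, gave 5.53, 5.19, 5.20 and 5.36 in wild type and 5.58, 5.14, 5.13 and 5.43 in knockout. These values are below background on all 8 arrays (detection p from 0.0802 to 0.2519) and overlap. Smtn encodes smoothelin, a cytoskeletal protein of contractile cells, and gave 10.19, 10.28, 10.15 and 10.43 in wild type and 10.08, 10.08, 10.06 and 9.95 in knockout. Knockout arrays were all below wild type by a narrow gap. Its change was -0.22 ± 0.07 (SE, limma adjusted p = 0.0272). The second Smtn probe had a change of -0.12 (limma adjusted p = 0.307), and the call at the first was lost with the replicate number as a block (adjusted p = 0.0627). Smtn also lost it when wild-type replicate 2, wild-type replicate 4 or knockout replicate 4 was left out, with adjusted p of 0.0604 to 0.074.

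**Figure D2:**
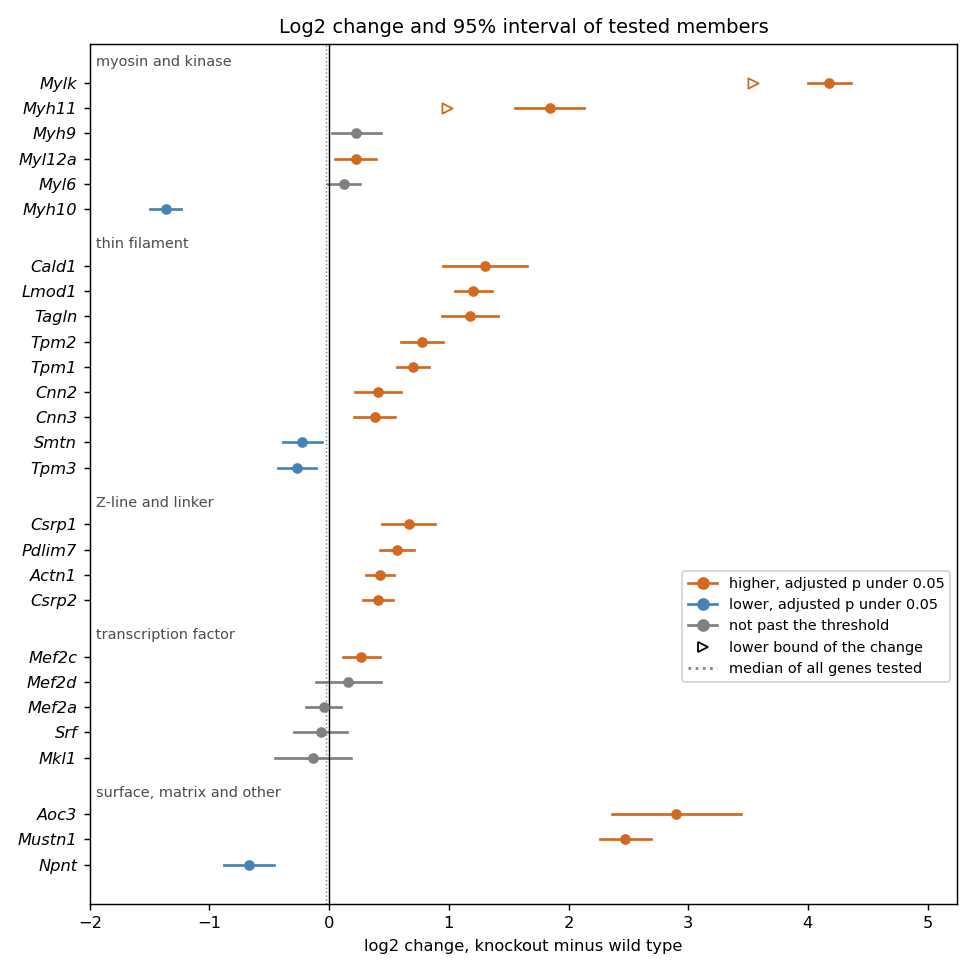
Log2 change, knockout minus wild type (horizontal axis), with the 95% confidence interval of the limma fit for the 27 tested members, grouped by role and ordered by size, with triangles at the lower bound of the change where a probe was not above background in wild type. Myosin and kinase genes range from -1.37 for Myh10 to 4.18 for Mylk, the 4 Z-line and linker genes lie between 0.41 and 0.66, and 4 of 5 transcription factors have intervals that include 0.

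Z-line and linker genes were all higher where tested. Csrp1, Pdlim7, Actn1 and Csrp2 were called, 4 of 4 tested, with log2 changes from 0.41 to 0.66. For comparison, 57.6% of all genes tested were called in either direction and 26.9% were higher. Csrp1, a LIM protein of smooth muscle, gave 12.26, 11.93, 12.09 and 12.34 in wild type and 12.96, 12.85, 12.77 and 12.70 in knockout. The groups did not overlap, and Csrp1 rose 1.58-fold, 0.66 ± 0.10 on the log2 scale (SE, limma adjusted p = 0.000252). Csrp2, a related LIM protein of arterial smooth muscle, gave 12.21, 12.10, 12.18 and 12.14 in wild type and 12.55, 12.52, 12.63 and 12.57 in knockout. Its values were close together within each group, and it rose 1.33-fold (limma adjusted p = 0.000174). Pdlim7, which links kinases to actin through its PDZ and LIM domains, gave 11.82, 11.80, 11.97 and 11.97 in wild type and 12.46, 12.47, 12.43 and 12.47 in knockout. All knockout arrays were higher, and Pdlim7 rose 1.48-fold (limma adjusted p = 3.27e-05). Actn1, the alpha-actinin that crosslinks actin at dense bodies and adhesions, gave 14.03, 14.01, 13.98 and 13.99 in wild type and 14.41, 14.47, 14.39 and 14.44 in knockout. Each group spanned less than the gap between them, and Actn1 rose 1.34-fold, 0.42 ± 0.05 on the log2 scale (SE, limma adjusted p = 8.07e-05).

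The remaining Z-line and linker members were dim. Des, which encodes the intermediate filament protein desmin, was above background on knockout replicate 2 alone, at 5.01, 5.31, 5.27 and 5.15 in wild type and 5.31, 5.83, 5.31 and 5.50 in knockout. The Des values overlapped between the groups. Synpo2, an actin-bundling protein, and Pdlim3, an alpha-actinin partner, were below background on all 8 arrays, with detection p from 0.5226 to 0.9223 for Synpo2 and from 0.3434 to 0.7343 at the brighter of the 2 Pdlim3 probes.

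Of the 5 transcription factors tested only Mef2c was higher, 0 were lower and 4 did not pass, with a median log2 change of -0.05 at the brightest probes (0.16 at the second brightest and 0.14 over the mean of each gene's probes). Beside this, 26.9% of all genes tested were higher and 30.7% lower. Mkl1 and Mef2d have 1 tested probe each, which was kept under both probe alternatives, and the median of 0.16 is the Mef2d value. Mef2c, a MADS-box factor of muscle, gave 8.84, 8.88, 8.92 and 8.86 in wild type and 9.12, 9.09, 9.07 and 9.31 in knockout. Knockout arrays were all higher, and Mef2c rose 1.21-fold, 0.27 ± 0.07 on the log2 scale (SE, limma adjusted p = 0.00683). Its other 2 tested probes rose as well, by 0.27 and by 0.81 on the log2 scale. The latter was above background in knockout alone, at least 1.51-fold higher, and so had to differ to pass the filter. Srf, which encodes serum response factor and carries the CArG boxes printed above, gave 10.63, 10.51, 10.62 and 10.95 in wild type and 10.52, 10.51, 10.70 and 10.70 in knockout. The groups overlap, and the difference was -0.07 (95% confidence interval from -0.29 to 0.15, limma adjusted p = 0.565). A dimmer Srf probe had a difference of 0.35 (limma adjusted p = 0.112). Mef2a gave 8.58, 8.76, 8.67 and 8.77 in wild type and 8.62, 8.70, 8.57 and 8.69 in knockout. Its groups overlap too, with a difference of -0.05 (95% confidence interval from -0.19 to 0.10, limma adjusted p = 0.563). Mkl1, the myocardin-related factor A that is released by actin assembly, gave 6.40, 6.66, 6.38 and 6.22 in wild type and 5.92, 6.23, 6.61 and 6.37 in knockout. Mkl1 values were spread within each group, and the difference was -0.13 (95% confidence interval from -0.45 to 0.19, limma adjusted p = 0.451). Mef2d gave 5.91, 5.73, 5.67 and 5.89 in wild type and 5.99, 5.98, 5.62 and 6.24 in knockout, above background on 2 wild-type and 3 knockout arrays. Its difference was 0.16 (95% confidence interval from -0.11 to 0.43, limma adjusted p = 0.284), and it passed without knockout replicate 3 (log2 change 0.27, adjusted p = 0.0398).

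Myocd, which encodes myocardin, the SRF partner of cardiac and smooth muscle, had 3 probes. The brightest gave 5.19, 5.77, 5.12 and 5.35 in wild type and 5.80, 5.15, 5.24 and 5.34 in knockout and was above background on knockout replicate 1 only. The other 2 Myocd probes were below background on all 8 arrays, with detection p from 0.0664 to 0.2857 and from 0.1241 to 0.3409. No Myocd probe was above background on more than 1 array, so no level is given for either group. Mkl2, the related factor B, had 3 probes below background on all arrays. Its brightest gave 5.23, 5.17, 5.47 and 5.06 in wild type and 5.54, 5.56, 5.81 and 5.65 in knockout, and the groups do not overlap, but both lie below background and no fold is given. In a fit without the filter on dim probes this Mkl2 probe and the brighter Ppp1r14a probe passed (adjusted p = 0.00879 and 0.00442), which brought the members called higher to 19 of 34.

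Of the 3 members outside filaments and transcription, Aoc3 and Mustn1 were higher and Npnt was lower. Aoc3 encodes vascular adhesion protein 1, an amine oxidase on the surface of smooth muscle and endothelium, and gave 5.63, 5.91, 7.02 and 6.18 in wild type and 9.09, 9.16, 9.01 and 9.07 in knockout. Wild type was widely spread, from replicate 1 below background to replicate 3 at 7.02, while the knockout arrays were close together. Aoc3 rose 7.47-fold, 2.90 ± 0.24 on the log2 scale (SE, limma adjusted p = 3.96e-06), and its change was 2.12 under normexp with an offset of 50. Mustn1, a small nuclear protein of the musculoskeletal system, gave 9.30, 9.55, 9.56 and 9.49 in wild type and 12.05, 12.10, 11.93 and 11.72 in knockout at its brightest probe. The other gave 7.45, 7.34, 7.60 and 7.47 in wild type and 11.47, 11.55, 11.51 and 11.24 in knockout. Knockout arrays lay above wild type at both, by 5.56-fold at the first, 2.48 ± 0.10 on the log2 scale (SE, limma adjusted p = 1.44e-08), and by 15.7-fold at the second. The size of the Mustn1 rise thus depends on the probe. Npnt encodes nephronectin, a matrix ligand of the integrin alpha8 beta1, and gave 7.36, 7.73, 7.49 and 7.30 in wild type and 6.82, 6.79, 6.88 and 6.72 in knockout. All knockout arrays were lower, and Npnt fell 1.59-fold, -0.67 ± 0.09 on the log2 scale (SE, limma adjusted p = 0.000175).

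**Figure D3:**
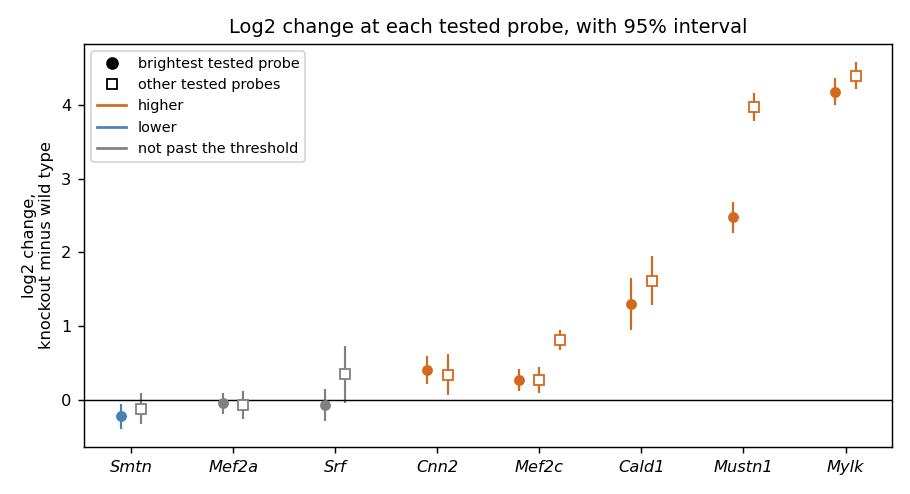
Log2 change, knockout minus wild type (vertical axis), at each tested probe of the 8 members with several, with the 95% confidence interval, filled circles for the brightest probe and open squares for the others, coloured by call. Probes of a gene share a call in 7 of the 8 genes, the exception being Smtn, and the Mustn1 probes stand apart at 2.48 and 3.98. Both Mylk probes and the dimmest tested Mef2c probe had to differ to pass the filter. For Srf and Mef2a no probe passed the threshold, and the Srf changes were -0.07 and 0.35.

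Over probes in place of genes, 23 of the 36 tested member probes were higher, 4 were lower and 9 did not pass, against 56.3% of all 12040 tested probes called in either direction. The 23 include both Mylk probes, that of Myh11 and 1 of Mef2c, which passed the filter through knockout arrays alone and so had to differ. Detection p was under 0.05 on all 8 arrays for 29 of the 57 member probes. The other tested probes were both of Mylk, that of Myh11, 1 of Mef2c, that of Mef2d, the dimmer of Srf and that of Aoc3. The Mylk probes had detection p from 0.183 to 0.743 on wild-type arrays, and Myh11 from 0.333 to 0.672. Of the 21 member probes that were not tested, 16 were below background on every array and 5 were above it on 1 to 3 arrays, which were those of Des and Myocd given above and 1 each of Smtn, Tpm2 and Npnt. Set against each other by role, the 6 myosin and kinase genes had a median absolute log2 change of 0.80 (3 higher, 1 lower) with Mylk and Myh11 at their fitted values and of 0.61 with them at their bounds, the 9 thin filament genes of 0.70 (7 higher, 2 lower), the 4 Z-line and linker genes of 0.50 (4 higher, 0 lower) and the 5 transcription factors of 0.13 (1 higher, 0 lower), beside 0.28 over all genes tested. Without Mylk and Myh11, which had to differ to pass the filter, the 4 remaining myosin genes had a median absolute change of 0.22. The place of the myosin and kinase role in the order by size therefore rests on those 2 genes. The order of the roles is not read as a result. Thin filament, Z-line and transcription factor genes together had 12 higher and 2 lower of 18. Shares over all genes tested were 26.9% higher and 30.7% lower. Fitted changes of at least 2-fold were called in 3 of the 6 myosin and kinase genes, in 3 of the 18 others and in 2 of the 3 remaining genes. The share of all genes tested with such a call was 11.2%. Of the 3 in the first role 2 were Mylk and Myh11, Myh11 with a bound under 2-fold, and without both the count was 1 of 4 (Myh10). These counts describe the roles, and a difference between roles was not tested.

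Other genes of the same machinery were read from 3 lists. Over all genes tested 26.9% were higher and 30.7% lower, with a median log2 change of -0.02. Of 18 tested regulators of myosin, 7 were higher, 6 were lower and 5 did not pass, with a median of 0.16, so the share lower was near that over all genes. Rhob, a small GTPase, gave 10.80, 9.74, 9.17 and 10.13 in wild type and 11.16, 11.25, 11.12 and 11.28 in knockout. Wild type spanned a wide range, and all knockout arrays were higher. Rhob rose 2.36-fold, 1.24 ± 0.27 on the log2 scale (SE, limma adjusted p = 0.00328). Camk2g, a calmodulin-dependent kinase of smooth muscle, and Rock1, a kinase that inhibits myosin phosphatase, rose 1.72-fold and 1.43-fold (limma adjusted p = 1.79e-06 and 0.0012). Ppp1ca, a catalytic subunit of protein phosphatase 1, Prkca, protein kinase C alpha, and Mprip, which binds myosin phosphatase, fell 1.26-fold, 1.26-fold and 1.22-fold (limma adjusted p = 0.000859, 0.00435 and 0.00456). The Ppp1ca call ended at its second brightest probe (adjusted p = 0.0902).

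Of 25 tested genes of other actin-binding and LIM proteins, 14 were higher, 3 were lower and 8 did not pass, with a median of 0.40. Fhl2, a LIM-only protein that binds SRF, gave 9.96, 9.93, 9.99 and 10.25 in wild type and 11.27, 11.25, 11.12 and 11.39 in knockout. The groups did not overlap, and Fhl2 rose 2.34-fold, 1.23 ± 0.09 on the log2 scale (SE, limma adjusted p = 1.38e-06). Pdlim5 and Palld (palladin), which bind alpha-actinin, rose 2.05-fold and 1.88-fold (limma adjusted p = 6.98e-07 and 6.25e-06). Sorbs3 (vinexin) fell 1.55-fold and Cfl1 (cofilin 1), which severs actin filaments, fell 1.24-fold (limma adjusted p = 3.12e-05 and 0.00326). Synm, an intermediate filament protein, fell 1.34-fold at its brightest probe (limma adjusted p = 0.0143), but its second brightest probe had a change of 0.059 (adjusted p = 0.734). Among 19 tested partners and repressors of SRF and MEF2, 8 were higher and 8 lower, with a median of 0.08. Elk3, an ETS factor that forms complexes with SRF, gave 8.52, 8.75, 8.72 and 8.54 in wild type and 7.61, 7.47, 7.71 and 7.62 in knockout. All knockout arrays were lower, and Elk3 fell 2.04-fold, -1.02 ± 0.08 on the log2 scale (SE, limma adjusted p = 2.32e-06). Hdac4, a deacetylase that represses MEF2, and Nfatc1 fell 1.58-fold and 1.54-fold (limma adjusted p = 0.00022 and 3.26e-05). Nfatc4 rose 3.4-fold, Hey1, a target of Notch, 1.8-fold and Gata6, a GATA factor of vascular smooth muscle, 1.58-fold (limma adjusted p = 9.48e-06, 0.0032 and 0.00941). The Gata6 groups overlapped, at 10.69, 9.92, 9.70 and 10.22 in wild type and 10.83, 10.68, 10.83 and 10.83 in knockout.

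**Figure D4:**
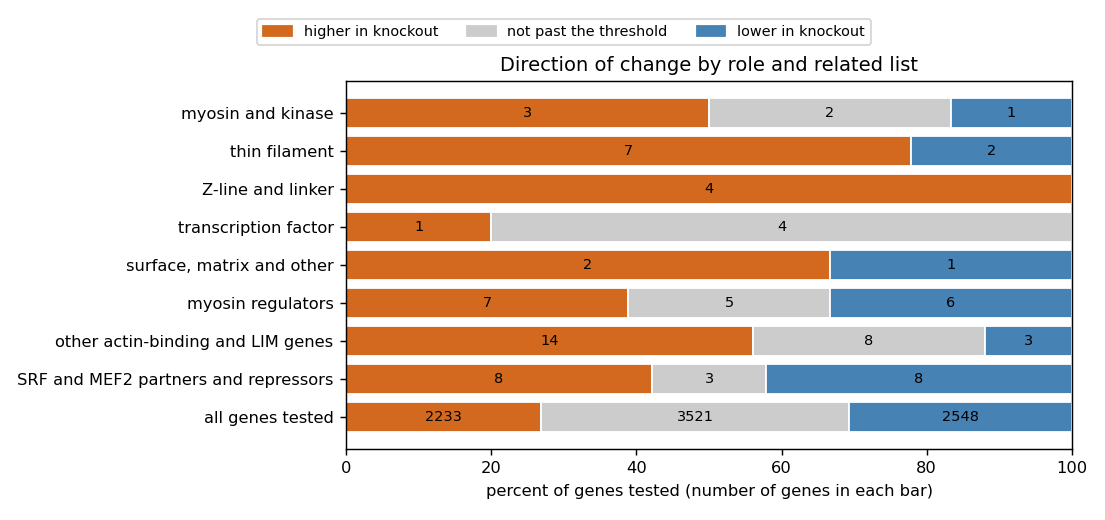
Share of tested genes (horizontal axis, percent) that were higher in knockout (orange), lower (blue) or not past the threshold (grey), for the 5 roles, for 3 lists of related genes and for all genes tested, with the number of genes in each bar. Z-line and linker genes are all orange, 4 of 5 transcription factors are grey, and the related lists have 7 of 18, 14 of 25 and 8 of 19 genes in orange.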

How the data were processed

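Sample titles gave the genotype, 4 arrays each. Per the labels' protocols, RNA was labelled as biotinylated cRNA for Illumina bead arrays. The deposited non-normalized table holds a signal intensity for every probe and array. Of these 28.42% to 29.69% are negative, so the authors' software had subtracted background. Beside each intensity stands a deposited detection p-value. A second deposited table, used as an alternative, holds log2 values whose columns share 1 distribution (median 6.05). No source used here names the software.

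The intensities were passed through neqc (limma 3.58.1, R 4.3.3, offset 16). Probes with detection p under 0.05 on at least 4 arrays entered lmFit and eBayes with genotype as the only term. Benjamini-Hochberg adjustment covered the 12040 tested probes, at a two-sided threshold of 0.05. Changes are knockout minus wild type, and a gene is read at its brightest tested probe. For a probe undetected throughout 1 genotype, "at least" folds set the detected group's mean against a floor: per array, the dimmest detected probe or the probe itself, whichever is higher. Platform annotation, updated by gene identifier to GRCm38.p6, gave 1 symbol to 23978 of 25697 probes, none to 1719 and several to 0. All members are named, as are the 3 largest rises and falls of each related list and the defining markers. The members and lists were chosen with earlier results of these data known. Alternatives covered background correction, scaling, the deposited log2 table, the filter, the variance model, array weights, a replicate block, the probe rule and leaving out each array. Same-numbered arrays did not deviate together. The number of arrays limits the precision. Figures were drawn with matplotlib 3.10.9.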

Additional observations from a re-analysis of the deposited data

Results flagged for a closer look

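In the 54 groups of 4 arrays checked (27 tested members in 2 genotypes), 2 held an array far from the other 3 by Dixon's ratio, where chance flags about 1 in 20 groups. Tagln on knockout replicate 3 had a log2 intensity of 11.81, against 11.72 to 11.73 on the other knockout arrays. Smtn on knockout replicate 4 had one of 9.95, against 10.06 to 10.08 on the others, and the Smtn call ended without that array (adjusted p = 0.074).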

How the results depend on the processing

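Of the 21 called members, 19 kept their direction and their call in all 20 alternatives, the exceptions being Smtn (lost in 6) and Myl12a (lost in 4). The mean of a gene's probes and the second brightest probe are checks for only the 8 members with several tested probes. For all others these alternatives used the same probe again. Of the 6 uncalled members, Myh9, Myl6 and Mef2d passed in at least 1 alternative. The number of members higher was 16 to 19 and the number lower 3 to 4 over the alternatives. The median log2 change of the thin filament genes moved to 0.57 with median scaling and to 0.55 without the filter on dim probes, and that of the transcription factors to 0.14 with the mean of a gene's probes and to 0.16 with the second brightest probe. Without the filter Cnn1, with a change of 0.004, joined the thin filament genes. The dimmer Srf probe, which entered both probe alternatives, had a change of 0.35 against -0.07 at the brightest. The cause of the shift under median scaling was not tested. Among the related genes, Synm had a change of 0.059 at its second brightest probe, the opposite direction. With the replicate number as a block, 17 members were higher and 3 lower, Smtn being lost, and no other member's call changed. Same-numbered arrays of the 2 genotypes had correlations of their deviations from -0.029 to 0.087, wild-type replicate 3 correlated best with knockout replicate 2, and the numbers were not taken to pair the arrays. Over the alternatives the fitted changes of Mylk, Myh11, Aoc3 and Lmod1 were lowest with normexp at an offset of 50 and highest without further background correction. Signal over background limits what can be said of Cnn1, Des, Myocd, Mkl2, Ppp1r14a, Synpo2 and Pdlim3.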
